A study of Homo sapiens with 4 samples.

Results

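The genes described here encode the route by which a T cell lets calcium in and turns that signal into transcription: the ORAI channel subunits of the plasma membrane, the STIM calcium sensors, the IP3 receptors and the NFAT transcription factors. They were chosen by name from a list of 10 genes (ORAI1, ORAI2, ORAI3, STIM1, STIM2, ITPR1, ITPR3, NFATC1, NFATC2 and NFATC3), of which 9 were found among the 25122 genes of the deposited table. ORAI3 was not analysed here. The data are 4 mRNA sequencing libraries from Jurkat, a long-established T-cell leukaemia line of human origin, with the genotype given as WT. A control hairpin (shcontrol) was present in 2 libraries, and a hairpin that targets BDH1 (shBDH1) in the other 2. BDH1 is a mitochondrial enzyme that interconverts the ketone bodies acetoacetate and beta-hydroxybutyrate. The labels name 1 cell line and 1 hairpin label per group, and they do not say how the hairpins were delivered or whether the libraries are separate cultures. What the p-values measure is therefore library spread, possibly technical only. The series describes MYC and NKX3.1 as targets downstream of BDH1 and mentions cells with MYC restored, which were not analysed here.

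In a resting T cell, calcium is held in the endoplasmic reticulum. Engagement of the T cell receptor activates phospholipase C, which releases the messenger IP3, and IP3 opens its receptors so that the store empties. STIM proteins sense the emptied store and open ORAI channels at the plasma membrane, which is called store-operated calcium entry. The calcium that enters binds calmodulin, which switches on the phosphatase calcineurin. Calcineurin dephosphorylates NFAT factors, which then move into the nucleus and act on cytokine and activation genes. Jurkat cells have long served as a model for this pathway.

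The libraries held 28681511 and 28797402 reads in genes for shcontrol and 29453383 and 28777374 for shBDH1. Values below are normalised read counts, that is, reads divided by 1 size factor per library, unless a sentence says otherwise. BDH1 itself stood at 1725 and 1911 in shcontrol and at 1221 and 1412 in shBDH1, 27.6% less on average, and MYC went from 14683 and 14804 to 7453 and 7368. CDK4, named in the series title, went from 6006 and 5885 to 4151 and 3909 (limma adjusted p = 1.3e-10). Of 15 T lineage markers, 14 were in the table, with summed counts of 64283 to 64692 in shcontrol and 76414 to 78008 in shBDH1. Markers of other lineages were low beside them: B lineage markers summed to 220 in both shcontrol libraries and to 666 to 694 in shBDH1, NK and cytotoxic markers to 126 to 128 and 392 to 459, and myeloid markers to 62 to 73 and 116 to 126. Fibroblast and epithelial markers summed to 718 to 732 and 922 to 1031, and the 1 erythroid or megakaryocyte marker in the table stood at 66 to 83 and 62 to 68. The part of these lineages in the results below was not tested. In bulk RNA, a change in the share of cells that express a gene and a change of RNA per cell cannot be told apart.

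Of the 9 genes, 7 rose in shBDH1 (ORAI1, ORAI2, STIM1, STIM2, ITPR1, NFATC2 and NFATC3), ITPR3 fell and NFATC1 did not pass the test (limma on log2(value + 1), Benjamini-Hochberg adjusted p under 0.05 over all genes tested). Calls were common in this comparison: 41.1% of the 19301 genes tested passed, 20.3% as rises and 20.8% as falls. All 9 genes averaged above 1000 over the 4 libraries, and among the 7227 genes at that level 60.9% passed, 26.2% as rises and 34.7% as falls; this level was chosen after the values were seen. The changes were modest, from 15.2% to 59.3% for the rises and 23.0% for the fall. With a variance prior that ignores the level of expression, only ORAI2, ITPR1 and ITPR3 of the 9 kept their calls in limma. The call was narrow for ITPR1 (limma adjusted p = 0.048) and ITPR3 (just under 0.05). The median log2 fold change over the 9 genes was 0.34, against -0.01 over all genes tested. Groups stood apart for 8 of the 9 genes, against 69.0% of all genes tested and 81.3% of those with a mean of at least 1000.

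**Figure D1:**
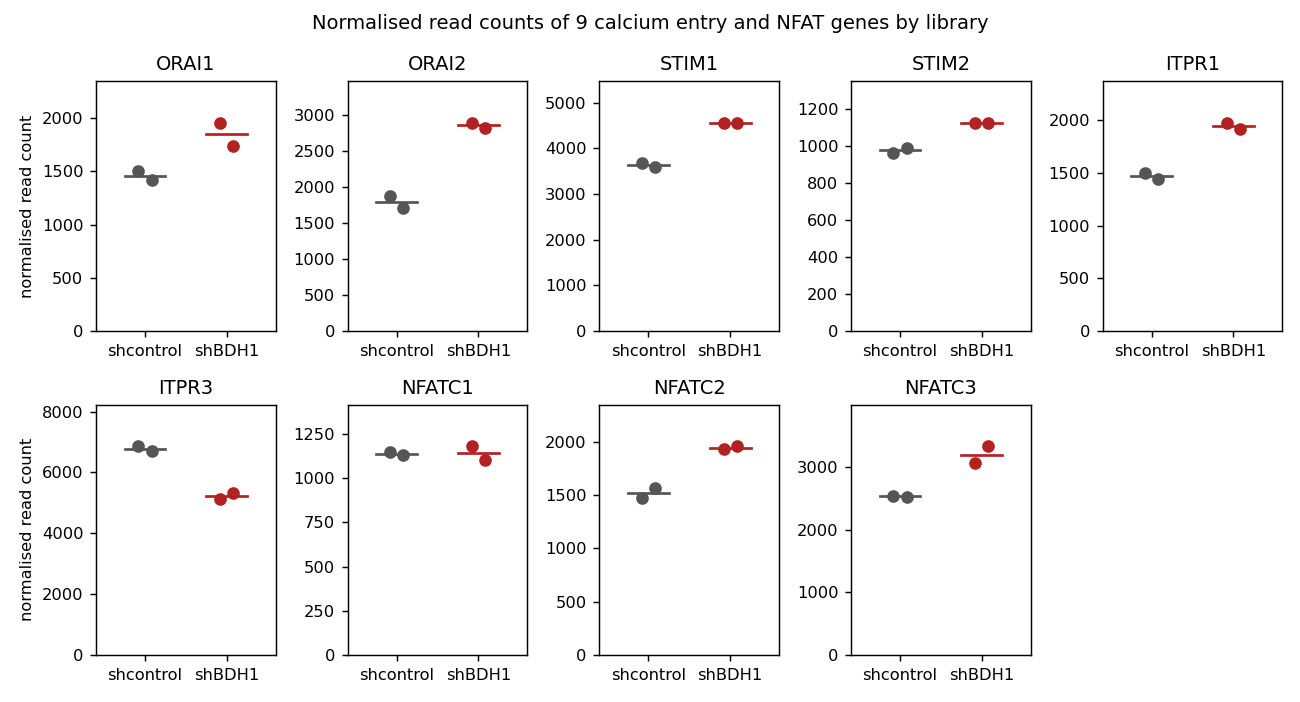
Normalised read count (vertical axis, from 0) of each of the 9 genes in the 2 shcontrol libraries (grey) and the 2 shBDH1 libraries (red); points are libraries and bars group means. The shBDH1 points lie above the shcontrol points for ORAI1, ORAI2, STIM1, STIM2, ITPR1, NFATC2 and NFATC3, below them for ITPR3, and on both sides of them for NFATC1.

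Promoter sequences were at hand for 8 of the 9 genes, all but ORAI1, as 13 windows of the 250 bases before a RefSeq start (GRCh38.p14, the assembly called hg38). They were searched on both strands for the NFAT core GGAAA, the E-box CACGTG that MYC and MAX can bind, the AP-1 element TGANTCA and the cyclic AMP element TGACGTCA. Below are 5 windows, printed 5′ to 3′ on the gene's strand with each match in capitals. ORAI2 (chr7:102433325-102433574, plus strand) is shown because it rose most, NFATC3 (chr16:68085120-68085369, plus strand) because it is the other gene of the 9 with an E-box match, and NFATC2 (chr20:51562840-51563089, minus strand) because it holds the most NFAT core matches. NFATC1 (chr18:79395680-79395929, plus strand) is shown because this upstream start is known as the inducible, NFAT-driven one, and ITPR3 (chr6:33621072-33621321, plus strand) because it was the gene that fell.
ORAI2: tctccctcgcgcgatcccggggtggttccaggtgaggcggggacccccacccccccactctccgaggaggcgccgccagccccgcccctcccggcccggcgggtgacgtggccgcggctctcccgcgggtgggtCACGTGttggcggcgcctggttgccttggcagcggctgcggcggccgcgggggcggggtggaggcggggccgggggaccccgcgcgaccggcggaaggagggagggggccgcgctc
NFATC3: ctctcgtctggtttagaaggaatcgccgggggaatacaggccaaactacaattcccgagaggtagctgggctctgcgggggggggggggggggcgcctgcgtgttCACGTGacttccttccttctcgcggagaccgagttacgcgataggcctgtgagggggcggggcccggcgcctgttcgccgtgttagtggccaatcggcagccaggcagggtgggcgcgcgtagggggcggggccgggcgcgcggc
NFATC2: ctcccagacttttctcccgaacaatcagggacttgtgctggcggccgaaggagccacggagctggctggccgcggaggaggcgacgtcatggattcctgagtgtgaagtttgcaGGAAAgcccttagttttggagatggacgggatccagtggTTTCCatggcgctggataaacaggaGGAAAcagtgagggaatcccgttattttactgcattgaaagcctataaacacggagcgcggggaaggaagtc
NFATC1: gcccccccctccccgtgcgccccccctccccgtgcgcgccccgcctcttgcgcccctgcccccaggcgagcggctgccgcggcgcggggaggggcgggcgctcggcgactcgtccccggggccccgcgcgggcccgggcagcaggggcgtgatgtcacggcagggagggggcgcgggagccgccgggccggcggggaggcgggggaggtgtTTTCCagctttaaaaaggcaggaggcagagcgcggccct
ITPR3: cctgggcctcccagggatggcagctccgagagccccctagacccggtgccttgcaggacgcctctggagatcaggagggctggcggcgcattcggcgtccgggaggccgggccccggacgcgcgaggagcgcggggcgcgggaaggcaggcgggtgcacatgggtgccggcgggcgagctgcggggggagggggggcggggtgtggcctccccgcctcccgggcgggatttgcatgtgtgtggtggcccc

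The E-box letters stood in 2 of the 13 windows, those of ORAI2 and NFATC3, against 6.34% of all 35116 windows of the same length. GGAAA stood in 6 of the 13, in the windows of STIM1, NFATC1 and NFATC2, against 55.6% of all windows. No AP-1 or cyclic AMP element letters were found in the 13 windows, which 6.57% and 1.65% of all windows held. The NFATC2 window had 3 NFAT core matches, beginning 136, 97 and 72 bases before the start. A match is a run of letters and not a measured site, and no binding was measured in these libraries. STIM1 has 4 windows, of which one pair overlaps.

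ORAI subunits assemble into the pore through which store-operated calcium enters; ORAI1 is the main pore of T cells and ORAI2 can join it in mixed channels that carry less current. ORAI2 counts were 1878 and 1712 in shcontrol against 2895 and 2824 in shBDH1. Both shBDH1 libraries lay above both shcontrol libraries. ORAI2 thus rose by 0.67 on the log2 scale (SE 0.06, 95% interval 0.54 to 0.80, limma adjusted p = 7.9e-10), which 18.6% of all genes tested exceeded in size. ORAI1 counts were 1504 and 1419 in shcontrol against 1958 and 1741 in shBDH1, so the groups stood apart, with more spread between the shBDH1 libraries. ORAI1 rose by 0.34 on the log2 scale (SE 0.07, 95% interval 0.19 to 0.49, limma adjusted p = 4.0e-04). Without shBDH1 replicate 1 the ORAI1 estimate was 0.25 (limma adjusted p = 0.019). ORAI1 (ENSG00000276045) lies on chromosome 12 from 121626550 to 121642677 and ORAI2 (ENSG00000160991) on chromosome 7 from 102433106 to 102456821 (hg38, GENCODE 29). Exons of ORAI2 overlap those of ALKBH4 on the opposite strand by 584 bases. No strand setting is known, so this pair may share reads; ALKBH4 stood at 575 ± 6.80 in shcontrol and 545 ± 31.3 in shBDH1 (SD, n = 2 each; log2 fold change -0.08, limma adjusted p = 0.61).

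STIM1 and STIM2 are single-pass proteins of the endoplasmic reticulum whose luminal part binds calcium; STIM1 carries most of the response to a strongly emptied store, and STIM2 responds to small drops. STIM1 counts were 3687 and 3583 in shcontrol against 4546 and 4559 in shBDH1. Libraries of a group lay close together and the groups stood apart. STIM1 rose by 0.32 on the log2 scale (SE 0.05, 95% interval 0.22 to 0.43, limma adjusted p = 4.5e-06). STIM2 rose least, from 963 and 991 to 1124 and 1127, with a log2 fold change of 0.20 (SE 0.08, 95% interval 0.04 to 0.37, limma adjusted p = 0.047). This call was borderline: it was lost in 8 of 17 other settings, among them DESeq2 (adjusted p = 0.1) and the omission of any 1 library. With 1 library left out, the limma adjusted p was 0.19 without shcontrol replicate 1, 0.097 without shcontrol replicate 2, and 0.12 without either shBDH1 replicate. STIM1 (ENSG00000167323) lies on chromosome 11 from 3854527 to 4093210 and STIM2 (ENSG00000109689) on chromosome 4 from 26857678 to 27025381 (hg38).

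The IP3 receptors, the release channels of the store, moved apart. ITPR3 counts were 6856 and 6714 in shcontrol against 5136 and 5316 in shBDH1. It was the gene of the 9 with the highest counts and the one that fell, by 0.38 on the log2 scale (SE 0.04, 95% interval -0.47 to -0.29, limma adjusted p = 6.3e-08). ITPR1, the receptor most studied in neurons and also used by T cells, had 1499 and 1445 in shcontrol against 1976 and 1912 in shBDH1. The groups stood apart, with a log2 fold change of 0.40 (SE 0.07, 95% interval 0.26 to 0.54, limma adjusted p = 2.0e-05). ITPR2, the remaining receptor of the family and not among the 10 listed genes, had 2256 and 2195 against 2294 and 2372, a log2 fold change of 0.07 (limma adjusted p = 0.4). ITPR3 (ENSG00000096433) lies on chromosome 6 from 33620365 to 33696574 and ITPR1 (ENSG00000150995) on chromosome 3 from 4493345 to 4847840 (hg38). UQCC2, an assembly factor of respiratory complex III, overlaps ITPR3 exons on the opposite strand by 1025 bases and fell from 1675 and 1706 to 1520 and 1434 (log2 fold change -0.20, limma adjusted p = 0.027). AC018816.1 overlaps ITPR1 on the opposite strand by 444 bases and was not called (506 ± 49.0 and 550 ± 30.7, SD, n = 2 each; limma adjusted p = 0.42).

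NFATC2 and NFATC3, the NFAT proteins present in T cells before activation, both rose. NFATC2 counts were 1469 and 1570 in shcontrol against 1936 and 1958 in shBDH1, with no overlap (log2 fold change 0.36, SE 0.07, 95% interval 0.22 to 0.50, limma adjusted p = 9.3e-05). NFATC3 counts were 2543 and 2528 in shcontrol against 3073 and 3333 in shBDH1, again with no overlap (log2 fold change 0.34, SE 0.06, 95% interval 0.22 to 0.45, limma adjusted p = 2.5e-05). NFATC1, whose short isoform is induced by NFAT itself upon activation, had 1147 and 1130 in shcontrol against 1179 and 1105 in shBDH1. The shcontrol values lay between the shBDH1 values, and the log2 fold change was 0.00 (SE 0.08, limma adjusted p = 0.98). Its 95% interval ran from -0.16 to 0.17, so a change as large as that of NFATC2 lay outside it. Counts are per gene, so the NFATC1 isoforms from its separate starts cannot be told apart. NFATC1 (ENSG00000131196) lies on chromosome 18 from 79395856 to 79529325, NFATC2 (ENSG00000101096) on chromosome 20 from 51386957 to 51562831 and NFATC3 (ENSG00000072736) on chromosome 16 from 68084751 to 68229259 (hg38). The antisense gene AC020978.5 overlaps NFATC3 exons by 2796 bases, the longest overlap among the 9 genes. It rose from 1464 ± 49.0 to 1708 ± 3.29 (SD, n = 2 each; log2 fold change 0.22, limma adjusted p = 0.011), so the pair may share reads.

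Relatives outside the listed genes were measured too. NFATC4 rose from 768 and 890 to 1200 and 1228 (log2 fold change 0.55, limma adjusted p = 8.5e-06). NFAT5, which responds to osmotic stress and is not controlled by calcineurin, rose from 1650 and 1564 to 2114 and 1988 (0.35, limma adjusted p = 1.0e-04). Of the 5 NFAT genes, 4 rose and NFATC1 did not pass the test. Over all genes tested 41.1% passed, 20.3% as rises. Among those with a mean of at least 1000, 60.9% passed, 26.2% as rises. The calls of NFATC2 and NFATC3 were lost in limma without the variance trend. The ryanodine receptors, another class of store release channel, were low: RYR1 lay between 3.08 and 23.5, RYR2 between 64.9 and 93.0 and RYR3 between 98.6 and 149, and none passed limma's test.

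**Figure D2:**
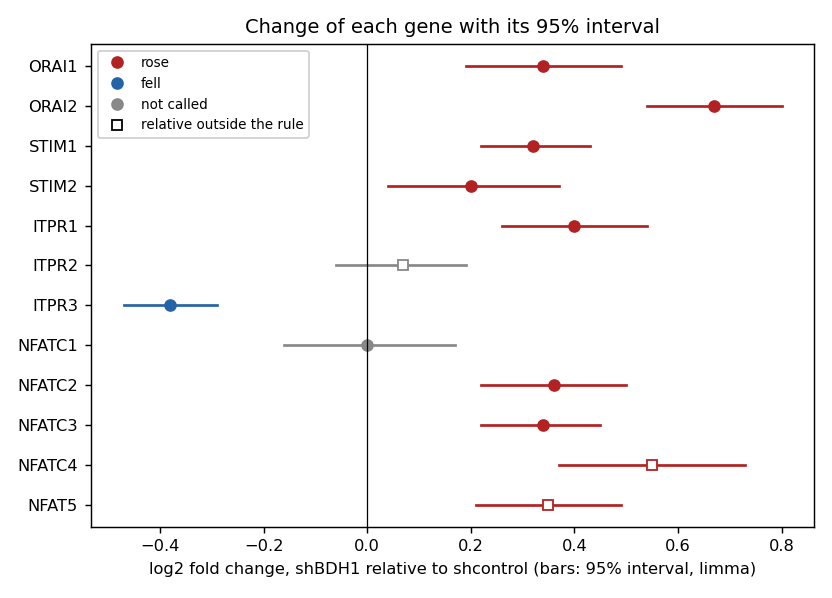
Log2 fold change of shBDH1 relative to shcontrol (horizontal axis) with its 95% interval from limma for the 9 genes (circles) and 3 relatives (open squares); red rose, blue fell, grey did not pass the test. ORAI2 stands furthest to the right at 0.67, ITPR3 alone lies left of 0 at -0.38, and the intervals of NFATC1 and ITPR2 span 0.

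Levels were compared between genes per length, as reads per kilobase of merged exons, scaled to library size (RPKM). In shcontrol the order of means was ITPR3 (23.3 ± 0.34), ORAI1 (21.9 ± 0.90), STIM1 (17.3 ± 0.34), NFATC3 (9.78 ± 0.04), NFATC2 (6.23 ± 0.29), ORAI2 (5.49 ± 0.36), STIM2 (4.80 ± 0.10), NFATC1 (4.27 ± 0.04) and ITPR1 (1.54 ± 0.04; SD, n = 2 each). No neighbours in this order had overlapping libraries. In shBDH1, ORAI1 (28.2 ± 2.34) and STIM1 (22.1 ± 0.05) stood above ITPR3 (18.3 ± 0.45), and ORAI2 (8.90 ± 0.15) stood above NFATC2 (8.12 ± 0.07; SD, n = 2 each). The place of ITPR3 depends on the length used. Merged exons of ITPR1 add up to 32454 bases and its longest coding transcript has 10197, while both lengths of ITPR3 are 9870 bases. With the longest coding transcript as length, ORAI1 (33.2) and STIM1 (28.3) were above ITPR3 (23.3) in shcontrol already, the shBDH1 libraries of ITPR3 and NFATC3 overlapped, NFATC1 (8.03) stood above NFATC2 (6.86) in shcontrol, and ITPR1 was at 4.90 there and at 6.59 in shBDH1.

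**Figure D3:**
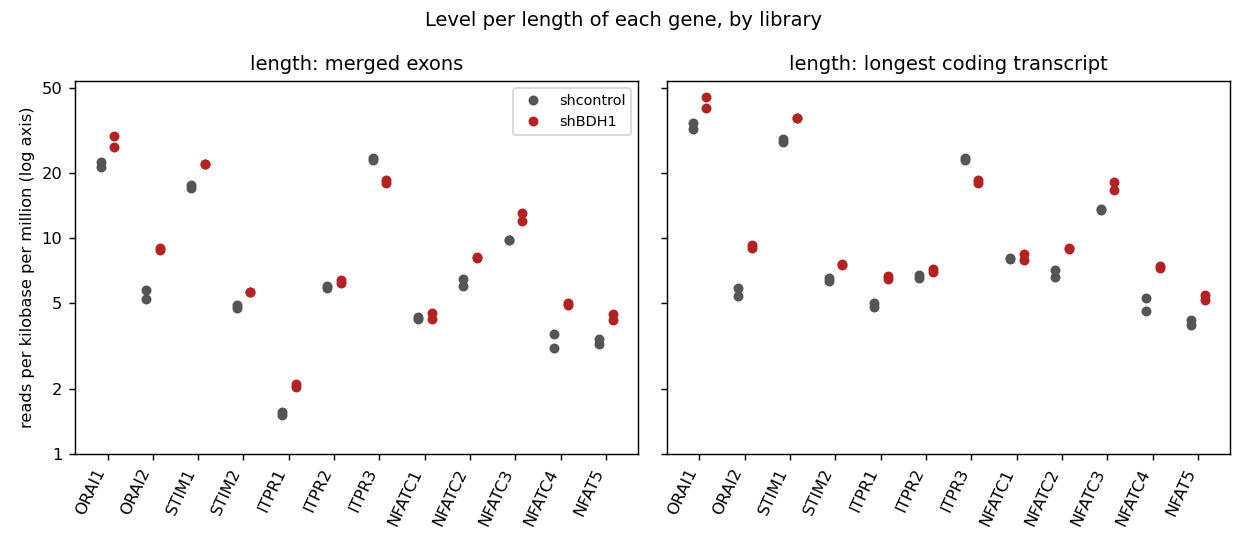
RPKM (vertical log axis) in each shcontrol (grey) and shBDH1 (red) library for the 9 genes, ITPR2, NFATC4 and NFAT5, with the length taken as merged exons (left) or as the longest coding transcript (right). ORAI1, STIM1 and ITPR3 have the highest means in both panels, and ITPR1 is the lowest on the left at 1.54 in shcontrol but not on the right.

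Because paralogs changed by different amounts, their shares within a family moved. ITPR3 made up 75.7% and 75.8% of the IP3 receptor level per length in the shcontrol libraries, and 68.4% and 68.7% in shBDH1. ITPR1 went from 5.03% and 4.96% to a mean of 7.76% ± 0.34 (SD, n = 2), and ITPR2 from 19.3% and 19.2% to 23.6% and 23.8%. In all 3 receptors the groups stood apart by more than the spread between libraries. These shares are parts of the same whole and not separate results, since a lower ITPR3 share raises the others. ITPR2 itself was not called (log2 fold change 0.07, limma adjusted p = 0.4). The size of the ITPR1 share depends on the length: with the longest coding transcript it went from 14.1% to 20.6%, a difference of 6.56 percentage points in place of 2.76, and ITPR3 went from 66.9% to 57.3%. ORAI2 made up 20.3% and 19.7% of ORAI1 and ORAI2 together in shcontrol and 23.1% and 24.8% in shBDH1. STIM1 made up 78.8% and 77.8% of STIM1 and STIM2 together in shcontrol and 79.7% in both shBDH1 libraries. That difference of 1.39 percentage points was 1.88 without shcontrol replicate 1 and 0.90 without shcontrol replicate 2. Among NFATC1 to NFATC4, the share of NFATC1 was 18.5% and 17.6% in shcontrol against 15.2% and 13.8% in shBDH1. The shares of NFATC3 (42.2% and 40.6%, then 40.8% and 42.9%) and NFATC2 (25.9% and 26.8%, then 27.3% and 26.8%) overlapped between groups. For 2 against 2 libraries, the smallest p that the exact two-sided permutation test can give is 0.333, which it gave for all of these shares except those of NFATC2 and NFATC3 (p = 0.667 each, exact).

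Around the 9 genes, 168 further genes of the pathway in 13 lists by role were looked up, of which 151 were in the table and 139 passed the minimum mean of 10. Of these, 56 rose, 18 fell and 65 did not pass limma's test, which is 53.2% called, with a median log2 fold change of 0.15. Of all genes tested 41.1% were called, 20.3% as rises and 20.8% as falls, with a median of -0.01. Among genes with a mean of at least 1000, a level that many of the 139 reached, 60.9% were called. Of that class, 26.2% were rises and 34.7% falls. The counts by role below stand beside these shares. The lists were written with earlier results of these data known, so their counts are descriptions.

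Among 13 tested genes that make or remove IP3, 8 rose and none fell, with a median log2 fold change of 0.35. The phospholipases PLCB2 (1178 and 1136 to 1640 and 1651; 0.51) and PLCG2 (909 and 874 to 1235 and 1348; 0.53) rose. PLCG1, the isoform that acts below the T cell receptor and is named with its values already seen, rose from 8110 and 7786 to 9093 and 9039 (0.19, limma adjusted p = 3.4e-04). Enzymes that remove IP3 rose as well: the kinase ITPKA by 1.15 from 109 and 112, and the phosphatase INPP5A by 0.72 from 545 and 519. INPP5A and PLCB2 have opposite-strand neighbours of low count, NKX6-2 and PLCB2-AS1, that were not called.

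Regulators of STIM, ORAI and the IP3 receptors went both ways. Of 9 tested STIM and ORAI regulators, 4 rose and 2 fell (median 0.14). SEPTIN7, a septin that organises the membrane around ORAI, rose by 0.62 and the microtubule-end protein MAPRE1, which carries STIM1 along growing microtubules, by 0.38. CRACR2B rose by 0.75 from a low count of 234 and 251, while UBQLN1 fell by 0.20. CRACR2A, the paralog of CRACR2B and named after its values were seen, had higher counts and fell. It went from 3171 and 3121 to 2716 and 2666 (-0.23, limma adjusted p = 0.0015). CRACR2B overlaps AP006621.1 on the opposite strand by 134 bases, which fell by 0.49, and UBQLN1 overlaps AL354920.1, which fell by 0.22. Of 9 tested IP3 receptor regulators, 2 rose and 3 fell (median -0.12). TMEM203, which takes part in store calcium control, fell from 1384 and 1210 to 668 and 719 (-0.90), and LRMP, a receptor-binding protein of lymphocytes also called IRAG2, from 1494 and 1283 to 791 and 710 (-0.88). AC023510.1, which overlaps LRMP on the opposite strand by 135 bases, fell by 0.77. TESPA1, which links the receptors to T cell receptor signalling, rose by 0.36, as did ERLIN2, which directs activated receptors to degradation.

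Of 14 tested calcium pumps and exchangers, 6 rose and 3 fell (median 0.44). Some of the rises were of low count, and the median includes them. ATP2B3 averaged 13.8 in shcontrol and 50.6 in shBDH1 (1.87), and SLC8A3 averaged 23.0 and 78.5 (1.85). Both are named after their values were seen. ATP2B4, a plasma membrane calcium pump, rose from 7688 and 7844 to 16720 and 15998, 1.07 higher on the log2 scale (SE 0.04, limma adjusted p = 5.7e-19), and ATP2B1 rose by 0.64. ATP2A3, the pump that refills the store in lymphocytes, had the highest counts of the list and fell from 21109 and 21306 to 17782 and 17355 (-0.27, limma adjusted p = 8.1e-08). ATP2A2, the ubiquitous store pump and named after its values were seen, was not called (0.08, limma adjusted p = 0.13). TMEM165, a Golgi protein, rose by 0.23; CLOCK, which overlaps it on the opposite strand by 76 bases, rose by 0.66.

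Of 11 calcium-binding and leak proteins of the endoplasmic reticulum and Golgi, 2 rose and 1 fell (median 0.00): the chaperone CANX rose by 0.56 and NUCB2 by 0.46, while CALR, the main store buffer, fell by 0.09 from 31535 and 31348 to 29467 and 29697. Of 7 genes of the mitochondrial uniporter, 2 rose and 1 fell (median 0.10), among them MCUB, which rose by 0.23, and MCUR1, which fell by 0.16. Other calcium-permeable channels had 6 that rose and 2 that fell of 17 (median 0.09). P2RX1, an ATP-gated channel, rose from 82.1 and 80.7 to 555 and 516 (2.70). TRPV2 rose by 0.89, and the lysosomal channel MCOLN1 fell by 0.45.

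Calmodulin and calcineurin link calcium to NFAT. Of 6 tested genes in the calmodulin and calcineurin list, which also holds the calcineurin-like CHP1, 4 rose and none fell (median 0.24). The catalytic calcineurin subunit PPP3CA rose from 844 and 761 to 1237 and 1256 (0.64, limma adjusted p = 6.3e-07), PPP3CC rose by 0.29 and CHP1, a calcineurin-like calcium binder, by 0.18. Calcineurin inhibitors and anchors had 2 that rose of 8 and none that fell (median 0.16), RCAN3 by 0.34 and AKAP5 by 0.52. RCAN1, an inhibitor that is itself an NFAT target and is named after its values were seen, did not pass (0.22, limma adjusted p = 0.054).

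NFAT kinases, which send NFAT back to the cytosol, were split, with 6 that rose and 4 that fell of 13 (median 0.14). DYRK1A rose from 3631 and 3315 to 4876 and 4344 (0.41) and GSK3B by 0.33. CSNK1E fell from 751 and 772 to 431 and 403 (-0.87) and CSNK1G2 by 0.39. CSNK1E shares 1316 exon bases on the same strand with TPTEP2-CSNK1E, which is counted separately. The CSNK1E counts may therefore hold only part of its reads. Of 7 tested calmodulin-dependent kinase genes, 1 rose and 1 fell (median -0.14): CAMK2D rose by 0.43, and CAMKK2, which activates other kinases of this class and AMPK, fell from 3411 and 3185 to 1645 and 1685 (-0.98, limma adjusted p = 1.5e-13).

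Of 34 listed NFAT target genes, 24 were in the table and 19 were tested. Not found there were IL2, IL3, IFNG, CSF2, FASLG, CTLA4, TNFRSF9, RNF128, CCL3 and CCL4. The counts and the median below therefore leave out many of the cytokine and effector genes of the list. Of the tested genes, 11 rose, CBLB fell (-0.38) and 7 did not pass, with a median of 0.58. TNF, IL4 and IL5 averaged under 10 in shcontrol and met the minimum mean of 10 only through shBDH1. Such genes could be called as rises but hardly as falls, which tilts the count and the median towards rises. CD69 rose from 338 and 330 to 947 and 1189 (1.66), TOX2 from 238 and 235 to 677 and 726 (1.56) and NDRG1 from 1759 and 1790 to 2654 and 2532 (0.55). TNF had no reads in either shcontrol library and a mean of 56.6 ± 4.71 in shBDH1 (SD, n = 2). Against a floor of 3 reads per library, that is at least 18.4-fold higher. Over the whole table, 1601 and 1644 genes had no reads in the shcontrol libraries, against 970 and 1067 in shBDH1. Gains from no reads were therefore not particular to this list. Counts of the cytokine genes were small, and not all of them rose. IL5 went from 10.3 and 6.13 to 46.2 and 39.2 (2.28). IL4 went from 6.16 and 8.18 to 24.6 and 20.1 without passing (limma adjusted p = 0.091). IL13 (6.16 and 0.00, then 0.98 and 0.00) and XCL1 (14.4 and 1.02, then 8.85 and 1.01) were too low to be tested. NR4A1, another listed target, did not pass (-0.02, limma adjusted p = 0.94). IL4, IL5, IL13, XCL1, NR4A1 and CBLB are named after their values were seen. Several of these genes, CD69 among them, also answer to pathways other than NFAT.

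**Figure D4:**
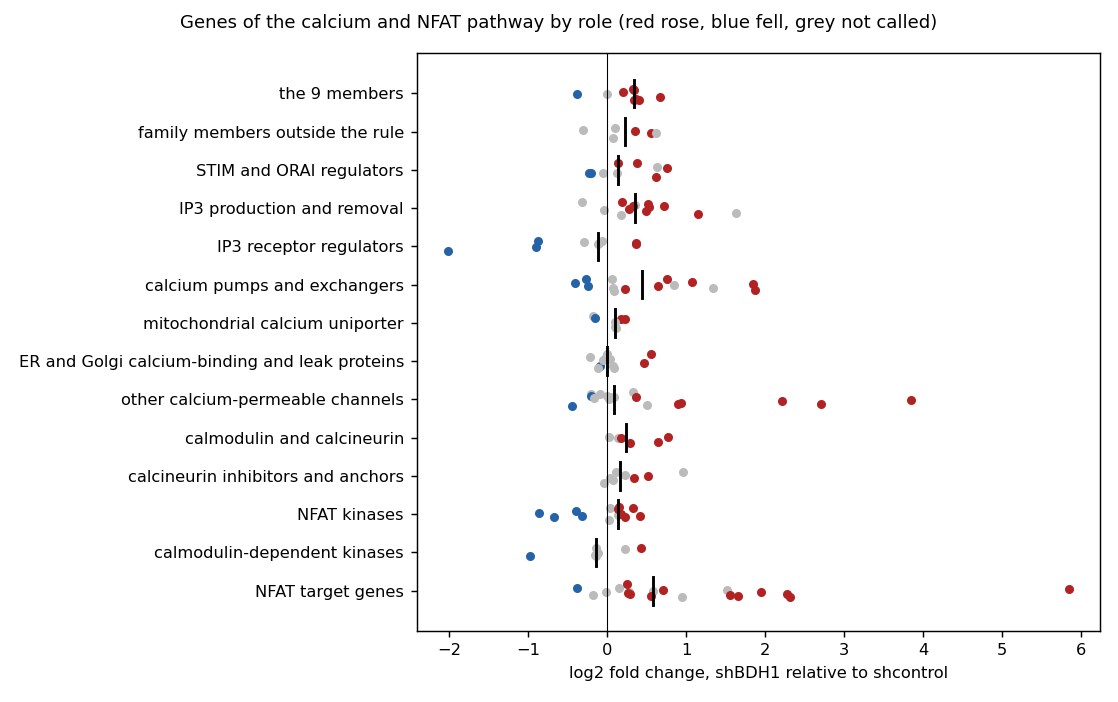
Log2 fold change of shBDH1 relative to shcontrol (horizontal axis) for the 9 genes and the 13 role lists (rows); points are genes, red rose, blue fell, grey did not pass, and black bars are medians. The 9 genes have a median of 0.34 and NFAT targets one of 0.58, while IP3 receptor regulators (-0.12) and calmodulin-dependent kinases (-0.14) lie left of 0.

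The profiles nearest to those of the strongest rise and the fall were found among 9823 genes with a mean of at least 500, as the Euclidean distance of centred log2 values over the 4 libraries. Nearest to ORAI2 were MINDY2 (distance 0.015), MYH9 (0.025) and UBTD2 (0.027), with log2 fold changes of 0.67, 0.66 and 0.66. Nearest to ITPR3 were AL157938.2 (0.008), PLPBP (0.012) and NBPF11 (0.014), with -0.37, -0.37 and -0.38. With 4 libraries, such likeness says little more than that the size of the change and the spread were alike.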

How the data were processed

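The labels' protocols describe TRIzol extraction, a DNase step and an mRNA library kit read in pairs. Genome hg38, the read checker FastQC (0.11.9) and the aligner HISAT2 (2.2.1) appear in the submitters' processing notes. The counter, the annotation and the strand setting were not given in the sources used here. The deposited values are a normalised signal: the authors had divided gene read counts by 1 size factor per library (0.9739, 0.9785, 1.0174 and 0.9944). This was read from the values, all of which (100.0%) were whole multiples of 1 step per library within 0.01 reads; for the second shBDH1 library the step is so near 1 that the deposited unit could not be checked apart from raw reads, so count models serve only as alternatives.

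The main test was limma 3.58.1 (R 4.3.3) on log2(value + 1), with an intensity trend in the variance prior (2 residual and 25.8 prior degrees of freedom), over 19301 genes with a mean of at least 10. Fold changes on this scale understate those of low genes. The 95% intervals are those of single genes. edgeR 4.0.16, DESeq2 1.42.0 and limma-voom on the recovered reads were alternatives; edgeR called 3976 genes higher and 3917 lower. Other settings were scalings, pseudocounts, filters, the replicate block and each library left out. The limma fit, not the alternatives, was run on simulated data with known fold changes. Far fewer genes were changed there than were called here, so that run says little about the calls. Libraries of a group differed beyond sampling noise (chi-square per degree of freedom 3.72 and 5.13). The 9 genes and the lists were chosen with earlier results of these data known. Beside the 9 genes, BDH1 and MYC, those named are measured family relatives, up to 4 called genes with the smallest p per list, overlapping genes and nearest profiles; others are marked. Some genes that the rule selects are not reported here. Lengths and positions are from GENCODE 29, promoters from RefSeq (GRCh38.p14). A planned comparison of protein motifs was not made. Scripts ran in Python 3.11.15 with pandas 2.3.3, with figures by matplotlib 3.10.9 and exact tests by scipy 1.17.1.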

Additional observations from a re-analysis of the deposited data

How the results depend on the processing

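Of the 9 genes, 7 rose and 1 fell under limma with its variance trend. Without the trend, 2 of the 9 rose (ITPR1 and ORAI2), 22 of the other pathway genes rose and 6 fell against 56 and 18, and 1598 of all genes rose and 1246 fell against 3910 and 4020. There ORAI1 (limma adjusted p = 0.1), STIM1 (0.057), NFATC2 (0.059) and NFATC3 (0.071) lost their calls. The kept calls were close to the threshold as well: ORAI2 (limma adjusted p = 0.035), ITPR1 (0.048) and ITPR3 (just under 0.05). Over the 17 settings, ORAI2 ranged from 0.61 to 0.74, ITPR1 from 0.37 to 0.43 and ITPR3 from -0.40 to -0.35, with no call lost. STIM2 lost its call in 8 settings, also with TMM factors (limma adjusted p = 0.051) and with no filter (0.061). Differences in share, in percentage points, moved with the length used. Undivided by length they were 5.65 for ORAI2, 6.42 for ITPR1 and -9.74 for ITPR3, against 3.99, 2.76 and -7.21. With the longest coding transcript, a length chosen after seeing the data, they were 6.56 for ITPR1, -9.68 for ITPR3 and -4.49 for NFATC1, against -3.55 for NFATC1.

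Libraries share replicate numbers across groups, and the labels do not say what the numbers mark. Deviations of same-numbered libraries correlated at 0.04, which cannot show whether these libraries were handled together. With the replicate block, limma called 4108 genes higher and 4217 lower and the same 7 rises and 1 fall among the 9 genes. Leaving out 1 library gave 3145 to 3472 rises and 3206 to 3639 falls over all genes. With 2 libraries per group, small changes such as that of STIM2 lie at the limit of what can be called.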
